A study of Homo sapiens with 6 samples.

Results

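The genes described here are 40 genes of glycolysis and of the hypoxia response, taken by symbol from a fixed list and matched 1 to 1 to rows of the deposited tables, out of 58395 gene rows in all. They comprise 4 glucose and lactate transporters, 17 glycolytic enzymes and lactate dehydrogenases, and 7 regulators of glycolytic flux and of pyruvate oxidation in mitochondria. The others are 4 genes of oxygen sensing and 8 further targets of the hypoxia-inducible factors. They were measured by strand-specific RNA-seq of total RNA from 6 clonal lines of HEK293, an established human embryonic kidney cell line. GST lines 2, 8 and 9 overexpressed GST-3F, glutathione S-transferase with the tag the labels call 3F, and served as controls. NOCT lines 4, 11 and 12 overexpressed NOCT ∆(2-15)-3F, a nocturnin that lacks residues 2 to 15, with the same tag. Nocturnin is a phosphatase of the cofactors NADP and NADPH. Each line is a single clone, the labels name no change to the cells' own NOCT gene, and the promoter that drives the constructs is not given in the sources used here. The cells were kept for 3 days at a standard temperature and CO2 level, and the labels name no low-oxygen treatment.

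Glycolysis splits glucose into pyruvate in the cytosol. Hexokinase, phosphofructokinase and pyruvate kinase catalyse its irreversible steps, and lactate dehydrogenase turns pyruvate into lactate while regenerating NAD. Pyruvate dehydrogenase kinases (PDK) phosphorylate and inhibit pyruvate dehydrogenase, which turns pyruvate into acetyl-CoA inside mitochondria. The hypoxia-inducible factors (HIF) are pairs of an oxygen-labile alpha subunit, HIF1A or EPAS1 (also called HIF-2 alpha), and a stable partner. In oxygenated cells the prolyl hydroxylases EGLN1 and EGLN3 mark the alpha subunit for destruction, so HIF activity is set mainly at the protein, which RNA-seq does not read. HIF binds DNA at the letters ACGTG or GCGTG and raises transporters, most glycolytic enzymes, PDK1 and genes such as VEGFA and CA9.

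The libraries held 19729745 to 24422406 gene counts. The row of the GST construct had 46 to 88 counts in the GST lines and 0 or 1 in the NOCT lines, and that of the NOCT construct 46 to 82 in the NOCT lines and 3 to 7 in the GST lines, so each library matched its label. Of 5 genes checked for the HEK293 label, LHX1, SALL2 and NEFL were above 1 TPM in every line, whereas NEFM was below 1 TPM in all lines but NOCT line 12, and PAX2 was below 1 TPM in the NOCT lines. TPM (a transcript's share of all transcripts) corrects for gene length and depth, so it allows levels of different genes to be compared. The 3 leukocyte markers summed to at most 0.987 TPM in a line, with CD3E at 0 in all, and the 3 endothelial markers to at most 1.66 TPM. The 5 fibroblast markers summed to 3.77, 3.28 and 3.34 TPM in GST lines 2, 8 and 9 and to 8.81, 7.69 and 2.22 TPM in NOCT lines 4, 11 and 12. Most of that sum was COL1A1, and COL1A2 was listed at 0 in every library. The part of these differences in the results was not tested.

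Mean levels of the 40 genes over the 6 lines ran from 0 to 1554.5 TPM, with a median of 26.0 TPM. The spread between genes far exceeded that between lines. The 40 genes summed to 4528, 4967 and 5178 TPM in GST lines 2, 8 and 9 and 5172, 4630.4 and 5049 TPM in NOCT lines 4, 11 and 12. GAPDH, which oxidises glyceraldehyde 3-phosphate, was the most abundant, at 1598 ± 150.0 TPM over GST lines and 1511 ± 119 TPM over NOCT lines (SD, n = 3 each). ENO1 (681 TPM over the 6 lines), LDHB (545), PKM (504) and TPI1 (369) followed. HIF1A was the most abundant gene outside the enzyme lists, at 157 TPM, and BNIP3L, a mitophagy receptor, was the highest of the remaining HIF targets, at 32.7 ± 3.25 TPM over GST lines and 43.2 ± 5.16 TPM over NOCT lines.

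Carbonic anhydrase CA9, a strongly induced HIF target in many hypoxic cells, had 0 counts in all 6 libraries, where a count of 0 allows up to 3 counts, or 0.123 to 0.152 CPM (a gene's reads relative to all gene reads of its library). The lactate exporter SLC16A3 had 5, 0 and 2 counts in GST lines 2, 8 and 9 and 7, 6 and 4 counts in NOCT lines 4, 11 and 12. These 2 genes were too low to be tested, so 38 of the 40 entered the comparison. ANKRD37, a small HIF-induced ankyrin protein, was the lowest of the tested genes, at 0.834 TPM.

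The counts of some of these genes are uncertain. ALDOA had 600 counts over the 6 libraries against 44397 for TPI1. In GENCODE 29, 1657 of its 3916 exonic bases (42.3%) also belong to a second protein-coding gene on the same strand (AC093512.2, with 22 to 64 counts per library), and HTSeq in its default mode counts no read that fits both. The mode used here, and the part of the overlap in the low ALDOA count, are not known, so the ALDOA row is not read as the level of aldolase A RNA. Pseudogenes, named after their parent, can also share its reads: 17 of the 40 genes have at least 1 such row in the tables, with 62 for GAPDH, 39 for BNIP3, 13 for PGAM1 and 6 for LDHA. The pseudogene rows themselves held few counts, at most 2.88% of their parent gene (SLC2A3). Reads without a unique alignment, 13.3% to 14.6% of each library, were counted for no gene. These low shares therefore do not show how many reads a parent gene lost.

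**Figure D1:**
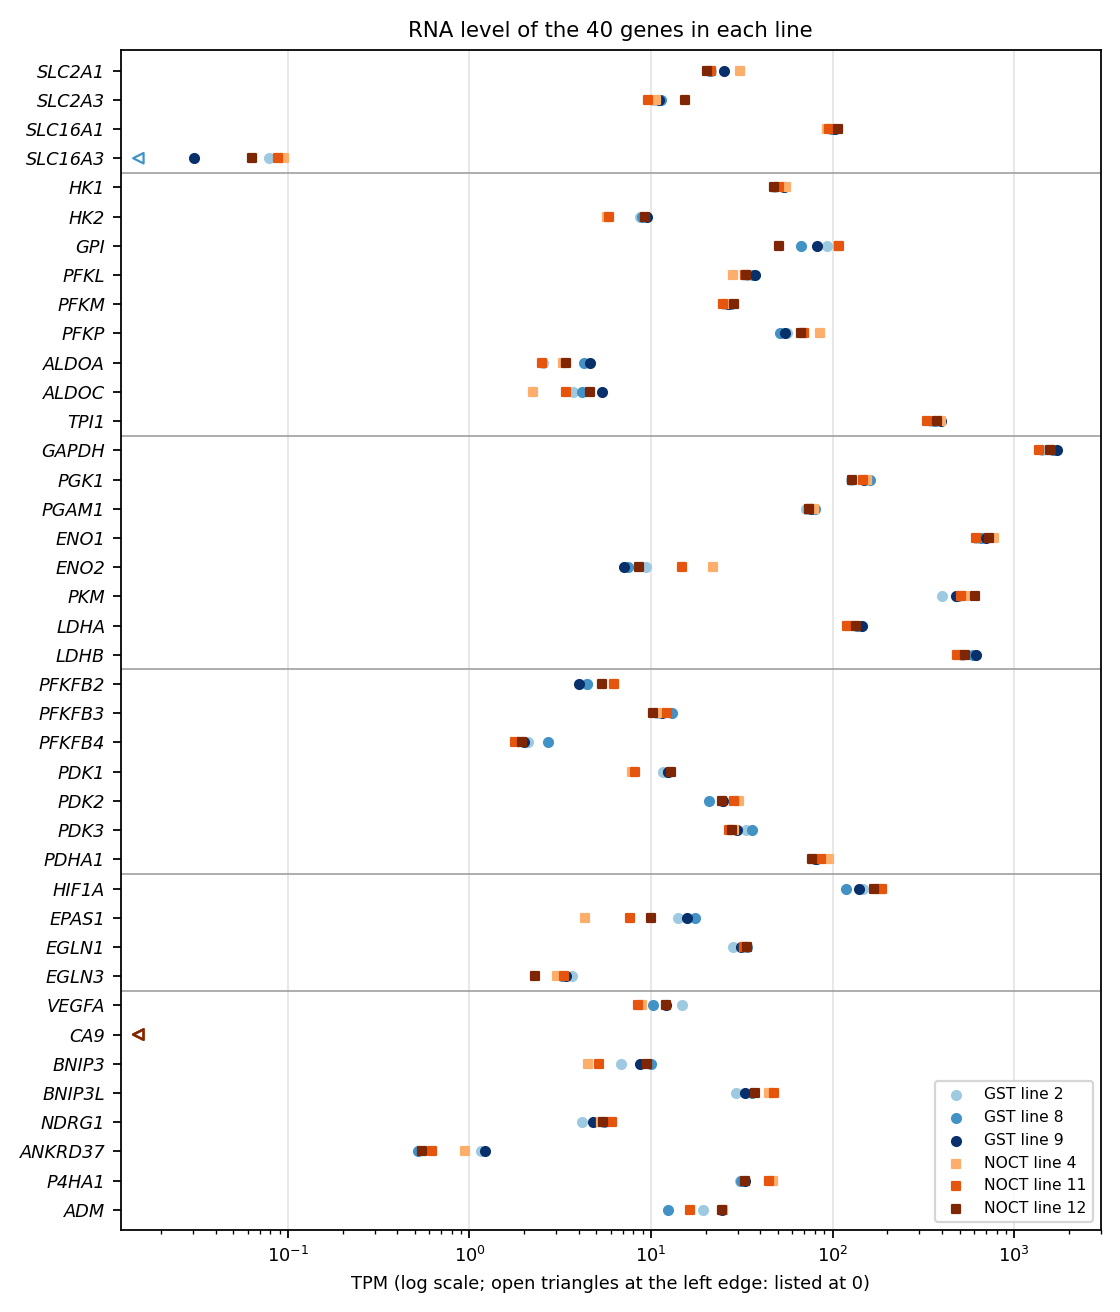
TPM (log axis) of the 40 genes in each of the 6 lines, 1 point per line, ordered by role with grey rules between the role lists. GAPDH lies furthest right, CA9 is listed at 0 in all lines, and for EPAS1 the 3 NOCT squares lie left of the 3 GST circles.

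None of the 38 tested genes passed the threshold between NOCT and GST lines, and the clearest separation was in EPAS1. In edgeR's quasi-likelihood test over 17261 genes, 0 of 38 had an adjusted p under 0.05, where 0.0579% of all genes did (0.0232% higher and 0.0348% lower in NOCT lines). The smallest adjusted p among them was 0.173. At an unadjusted p under 0.05 there were 10 of 38, against 13.9% of all genes, with 6 higher and 4 lower in NOCT lines (7.38% and 6.52% of all genes). The groups did not overlap in 10 of 38, 4 higher and 6 lower in the NOCT lines, against 20.0% of all genes (10.5% higher and 9.54% lower). Without a filter on low counts edgeR called 2, EPAS1 and ENO2, where it called 2.57% of 34539 genes. DESeq2 called 1 of the 38 (EPAS1), where it called 2.94% of all genes, and limma on log2(TPM + 1) and on log2(TPM + 0.1) called 0, with 7 at an unadjusted p under 0.05 in each (18.4%, against 14.2% and 14% of all genes). Fold changes ran from -1.18 to 0.81 on the log2 scale with a median of -0.10, against a median of 0.0046 over all genes, and 22 of 38 lay below 0 (49.3% of all genes). In bulk RNA, fewer cells with a transcript and less of it per cell cannot be told apart. An SD of log2 CPM of 0.7 or more within either group was found in 0 of the 38 genes and in 5.50% of all genes.

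The direction of small differences depended on the scale. When libraries were scaled to their spike-in totals, the median of all genes moved from 0.0046 to 0.15 and that of the 38 genes to 0.046, still below the median of all genes. The genes whose groups did not overlap then numbered 9 (8 higher, 1 lower), against 26.8% of all genes. In the following, CPM are counts scaled by TMM factors, which take the bulk of genes as level, and higher or lower is meant on that scale.

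**Figure D2:**
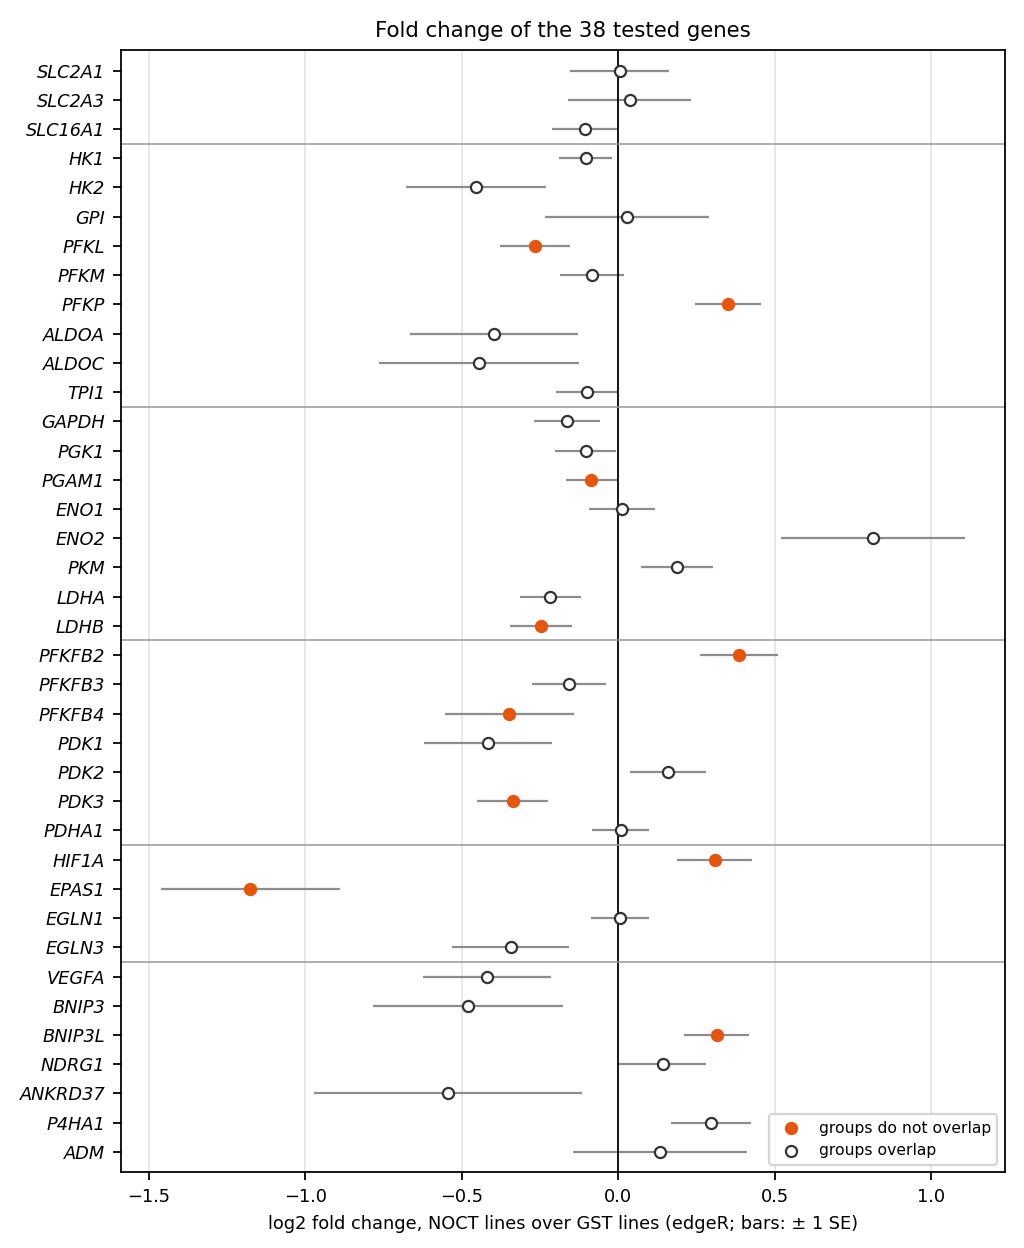
Fold change (log2, NOCT lines over GST lines) of the 38 tested genes from edgeR, with bars of 1 SE. Filled points are the 10 genes whose groups did not overlap. EPAS1 lies furthest left at -1.18 and ENO2 furthest right at 0.81.

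None of the 3 transporters tested separated the groups. SLC2A1, the basal glucose transporter GLUT1, stood at 37.5, 34.1 and 43.1 CPM in GST lines 2, 8 and 9 and 47.1, 34.1 and 33.8 CPM in NOCT lines 4, 11 and 12 (log2 fold change 0.0041 with SE 0.16, edgeR adjusted p 0.994). NOCT line 4 was the highest of the 6, and the other NOCT lines lay just below the lowest GST value. SLC2A3, a high-affinity neuronal-type glucose transporter, stood at 23.9, 24.1 and 24.6 CPM in GST lines 2, 8 and 9 and 21.1, 20.1 and 33.4 CPM in NOCT lines 4, 11 and 12. Its 3 GST lines lay within 1 CPM of each other, while NOCT line 12 was above and NOCT lines 4 and 11 below them. SLC16A1, the monocarboxylate transporter MCT1, was the main lactate transporter by RNA. It stood at 98.1, 99.0 and 103 TPM in GST lines 2, 8 and 9 and 93.7, 95.4 and 106 TPM in NOCT lines 4, 11 and 12 (log2 fold change -0.11 with SE 0.10, edgeR adjusted p 0.685).

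Among the enzymes of upper glycolysis, PFKP and PFKL did not overlap between the groups, in opposite directions, and neither passed the threshold. PFKP, the platelet-type isoform, was higher in each NOCT line, at 101, 85.8 and 95.8 CPM in GST lines 2, 8 and 9 and 133, 113 and 114 CPM in NOCT lines 4, 11 and 12 (log2 fold change 0.35 with SE 0.11, edgeR adjusted p 0.224). PFKL, the liver-type isoform, was lower in each NOCT line, at 113, 111 and 120.0 CPM in GST lines 2, 8 and 9 and 81.5, 99.7 and 105 CPM in NOCT lines 4, 11 and 12 (log2 fold change -0.27 with SE 0.11, edgeR adjusted p 0.343). PFKM, the muscle-type isoform, overlapped, at 68.8, 69.3 and 69.5 CPM in GST lines 2, 8 and 9 and 60.5, 61.5 and 73.9 CPM in NOCT lines 4, 11 and 12 (log2 fold change -0.084 with SE 0.10, edgeR adjusted p 0.751). None of the 3 passed the threshold, and the exact two-sided permutation p of 0.1 for PFKP and PFKL is the smallest that 3 lines against 3 allow. As a share of the summed TPM of the 3 isoforms, PFKP made up 48.7%, 44.7% and 46.3% in GST lines 2, 8 and 9 and 61.2%, 54.5% and 51.9% in NOCT lines 4, 11 and 12. The PFKL share was 29.4%, 31.4% and 31.5% in GST lines 2, 8 and 9 and 20.4%, 26.0% and 25.9% in NOCT lines 4, 11 and 12. Neither share overlapped between the groups, and NOCT line 4 had the highest PFKP and the lowest PFKL share; the shares were not tested. With the level of its chromosomal neighbours removed, the log2 fold change of PFKL was -0.14.

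HK2, the inducible hexokinase and a HIF target, split the NOCT lines. It stood at 19.6, 18.5 and 20.7 CPM in GST lines 2, 8 and 9 and 11.2, 12.0 and 19.8 CPM in NOCT lines 4, 11 and 12 (log2 fold change -0.45 with SE 0.22, edgeR adjusted p 0.412), so that NOCT lines 4 and 11 were below all GST lines and NOCT line 12 within their range. HK1, the constitutive hexokinase, stood at 111, 117 and 123 CPM in GST lines 2, 8 and 9 and 113, 108 and 106 CPM in NOCT lines 4, 11 and 12 (log2 fold change -0.10 with SE 0.085, edgeR adjusted p 0.616). HK2 made up 15.5%, 14.1% and 14.9% in GST lines 2, 8 and 9 and 9.34%, 10.3% and 16.3% in NOCT lines 4, 11 and 12 of the summed hexokinase TPM. GPI, the glucose 6-phosphate isomerase, varied widely within both groups, at 369.9, 247 and 316 CPM in GST lines 2, 8 and 9 and 369, 390.4 and 191 CPM in NOCT lines 4, 11 and 12 (log2 fold change 0.028 with SE 0.26, edgeR adjusted p 0.975). GPI was lowest in NOCT line 12, next to GST line 8, and the other lines were higher. TPI1, the triosephosphate isomerase, was at 348, 342 and 385 CPM in GST lines 2, 8 and 9 and 343, 301 and 360.4 CPM in NOCT lines 4, 11 and 12. ALDOC, the brain-type aldolase, was lowest in NOCT line 4 and highest in GST line 9, at 4.07, 4.18 and 5.66 CPM in GST lines 2, 8 and 9 and 2.12, 3.37 and 4.77 CPM in NOCT lines 4, 11 and 12 (log2 fold change -0.44 with SE 0.32, edgeR adjusted p 0.572), and the ALDOA row was at 3.70, 5.76 and 6.54 CPM in GST lines 2, 8 and 9 and 4.13, 3.32 and 4.72 CPM in NOCT lines 4, 11 and 12. The groups overlapped in all 5 of GPI, TPI1, ALDOC, ALDOA and HK1.

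The most abundant enzymes of lower glycolysis overlapped between the groups. GAPDH was at 1590.0, 1679.9 and 1850.4 CPM in GST lines 2, 8 and 9 and 1524, 1382 and 1664 CPM in NOCT lines 4, 11 and 12 (log2 fold change -0.16 with SE 0.10, edgeR adjusted p 0.522). PGK1, the phosphoglycerate kinase, had a log2 fold change of -0.10 ± 0.097 (SE) and overlapped. ENO1, the main enolase, stood at 1215, 1193 and 1327 CPM in GST lines 2, 8 and 9 and 1319.9, 1099.8 and 1348 CPM in NOCT lines 4, 11 and 12 (log2 fold change 0.012 with SE 0.11, edgeR adjusted p 0.973). PGAM1, the phosphoglycerate mutase, was the steadiest of the 38 genes, at 68.2, 70.4 and 70.7 CPM in GST lines 2, 8 and 9 and 65.6, 64.2 and 67.3 CPM in NOCT lines 4, 11 and 12. Its groups did not overlap, but the gap was small (log2 fold change -0.085 with SE 0.082, edgeR adjusted p 0.677). PKM, the pyruvate kinase, stood at 1278, 1451 and 1481 CPM in GST lines 2, 8 and 9 and 1486, 1479.5 and 1833 CPM in NOCT lines 4, 11 and 12, highest in NOCT line 12 (log2 fold change 0.19 with SE 0.12, edgeR adjusted p 0.506).

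ENO2, the neuron-specific enolase and a HIF target, was the gene with the largest positive fold change. It stood at 14.9, 11.0 and 11.0 CPM in GST lines 2, 8 and 9 and 30.4, 21.4 and 13.0 CPM in NOCT lines 4, 11 and 12 (log2 fold change 0.81 with SE 0.29, edgeR adjusted p 0.277). NOCT lines 4 and 11 exceeded every GST line, and NOCT line 12 lay between GST line 2 and the other two. ENO2 was a small part of enolase RNA, at 1.21% ± 0.253 of summed ENO1 and ENO2 TPM over GST lines and 2.09% ± 0.820 over NOCT lines (SD, n = 3 each).

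Both lactate dehydrogenase genes had fold changes below 0, and the share of each was similar in all lines. LDHB, the heart-type subunit, stood at 577, 608 and 664 CPM in GST lines 2, 8 and 9 and 503, 490.4 and 565 CPM in NOCT lines 4, 11 and 12 (log2 fold change -0.25 with SE 0.098, edgeR adjusted p 0.318), without overlap. LDHA, the muscle-type subunit and a HIF target, stood at 314, 292 and 324 CPM in GST lines 2, 8 and 9 and 255, 250.2 and 295 CPM in NOCT lines 4, 11 and 12 (log2 fold change -0.22 with SE 0.098, edgeR adjusted p 0.376), where NOCT line 12 lay above GST line 8. LDHB accounted for 80.5% ± 1.08 of lactate dehydrogenase TPM over GST lines and 80.2% ± 0.266 over NOCT lines (SD, n = 3 each). In GENCODE 29, 33.4% of the exonic bases of LDHB also belong to a second gene that has no row in the count tables.

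**Figure D3:**
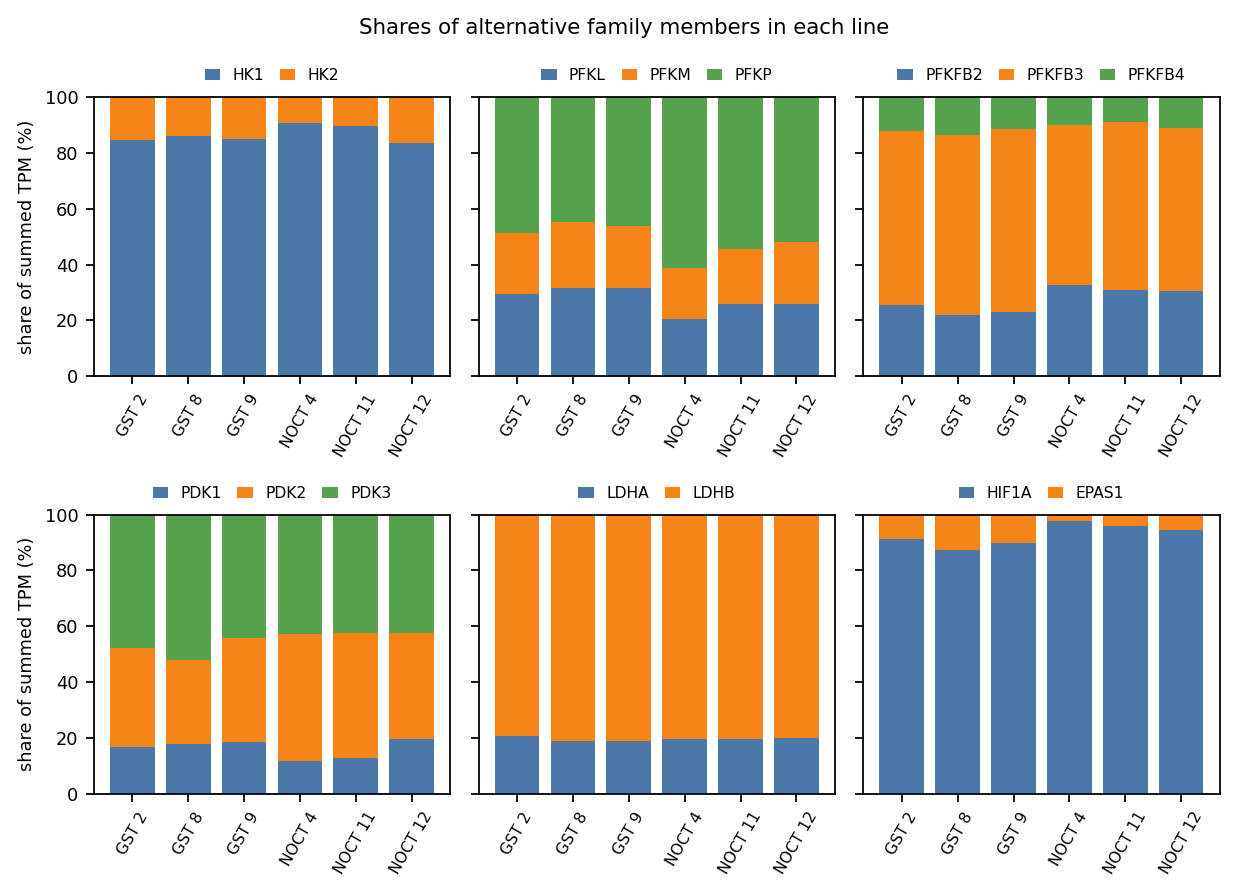
Share (%) of each member in the summed TPM of its family, 1 stacked bar per line, for hexokinases, phosphofructokinases, the PFKFB enzymes, PDK enzymes, lactate dehydrogenases and the 2 HIF alpha subunits. The PFKP and PFKFB2 parts are larger and the EPAS1 part smaller in all 3 NOCT bars, and the LDHA and LDHB parts are alike in all 6.

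The PFKFB enzymes make and remove fructose 2,6-bisphosphate, the main activator of phosphofructokinase. PFKFB2, the heart-type enzyme, was higher in each NOCT line, at 16.9, 15.5 and 14.8 CPM in GST lines 2, 8 and 9 and 20.7, 21.6 and 19.3 CPM in NOCT lines 4, 11 and 12 (log2 fold change 0.39 with SE 0.13, edgeR adjusted p 0.244). PFKFB4, a HIF target, was lower in each NOCT line but low in all, at 4.75, 5.71 and 4.38 CPM in GST lines 2, 8 and 9 and 3.77, 3.68 and 4.22 CPM in NOCT lines 4, 11 and 12 (log2 fold change -0.35 with SE 0.21, edgeR adjusted p 0.493). PFKFB3, the inducible form, was the most abundant on the TPM scale, at 10.8, 13.0 and 11.4 TPM in GST lines 2, 8 and 9 and 11.0, 12.2 and 10.3 TPM in NOCT lines 4, 11 and 12. PFKFB2 made up 25.7%, 21.9% and 23.0% in GST lines 2, 8 and 9 and 32.7%, 31.0% and 30.4% in NOCT lines 4, 11 and 12 of the summed TPM of the 3. Every NOCT line had a larger PFKFB2 share than any GST line.

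The pyruvate dehydrogenase kinases had fold changes of both signs. PDK3 was lower in each NOCT line, at 33.3, 33.5 and 28.8 CPM in GST lines 2, 8 and 9 and 24.9, 24.4 and 26.5 CPM in NOCT lines 4, 11 and 12 (log2 fold change -0.34 with SE 0.11, edgeR adjusted p 0.257). PDK1, a classical HIF target, was lower in NOCT lines 4 and 11 only, at 64.7, 63.3 and 66.8 CPM in GST lines 2, 8 and 9 and 37.9, 40.7 and 67.4 CPM in NOCT lines 4, 11 and 12 (log2 fold change -0.42 with SE 0.20, edgeR adjusted p 0.413). Its 3 GST lines and NOCT line 12 lay within 63.3 to 67.4 CPM. PDK2 overlapped, at 50.5, 39.2 and 49.0 CPM in GST lines 2, 8 and 9 and 53.9, 52.9 and 47.9 CPM in NOCT lines 4, 11 and 12. The substrate of these kinases, the pyruvate dehydrogenase subunit PDHA1, stood at 137, 123 and 130.3 CPM in GST lines 2, 8 and 9 and 139, 131 and 122 CPM in NOCT lines 4, 11 and 12 (log2 fold change 0.0077 with SE 0.091, edgeR adjusted p 0.981).

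EPAS1 (ENSG00000116016; chromosome 2, 46293667 to 46386703, plus strand) had the largest fold change and the smallest p of the 38 genes. It stood at 38.3, 43.8 and 41.5 CPM in GST lines 2, 8 and 9 and 10.3, 18.8 and 25.8 CPM in NOCT lines 4, 11 and 12. The highest NOCT value lay below the lowest GST value, and NOCT line 4 had the least. The group means were 41.2 ± 2.77 CPM and 18.3 ± 7.79 CPM (SD, n = 3 each), a 2.25-fold higher mean in GST lines (log2 fold change -1.18 with SE 0.29, edgeR adjusted p 0.173; unadjusted p 0.00324, rank 323 of 17261). It passed in DESeq2 (adjusted p 0.00253) and in the authors' deposited table (log2 fold change -0.89 with SE 0.20, adjusted p 0.00156), which holds 39 of the 40 genes and calls 1 of them, where 2.09% of its genes are called. That table is also a DESeq2 comparison of these lines, and its name calls its fold changes shrunken. In the fits made here, the log2 fold change of EPAS1 lay between -1.51 and -0.89 over the 14 alternatives, and its adjusted p between 4.2e-05 and 0.57.

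HIF1A (ENSG00000100644; chromosome 14, 61695513 to 61748259, plus strand) had a fold change of the opposite sign. It stood at 284, 211 and 258 CPM in GST lines 2, 8 and 9 and 295, 327 and 309.5 CPM in NOCT lines 4, 11 and 12 (log2 fold change 0.31 with SE 0.12, edgeR adjusted p 0.309), with every NOCT line above every GST line. Its sign turned when the level of its chromosomal neighbours was removed (log2 fold change -0.022, edgeR adjusted p 0.924), and the shares given next are without that step. On the TPM scale HIF1A was at 135 ± 14.7 TPM over GST lines and 178 ± 9.13 TPM over NOCT lines and EPAS1 at 15.8 ± 1.68 TPM over GST lines and 7.32 ± 2.84 TPM over NOCT lines (SD, n = 3 each). EPAS1 thus made up 8.69%, 12.8% and 10.2% in GST lines 2, 8 and 9 and 2.39%, 3.90% and 5.56% in NOCT lines 4, 11 and 12 of the summed alpha subunit TPM. The prolyl hydroxylase EGLN1 overlapped at 76.7, 84.4 and 81.6 CPM in GST lines 2, 8 and 9 and 76.5, 80.0 and 87.2 CPM in NOCT lines 4, 11 and 12 (log2 fold change 0.0052 with SE 0.092, edgeR adjusted p 0.988), and EGLN3, the more inducible one, overlapped too, at 10.1, 8.13 and 9.00 CPM in GST lines 2, 8 and 9 and 7.23, 8.21 and 5.98 CPM in NOCT lines 4, 11 and 12 (log2 fold change -0.34 with SE 0.19, edgeR adjusted p 0.456).

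The further HIF targets showed no common direction: of 7 tested, 4 had a fold change above 0 and 3 below, with a median of 0.13. BNIP3L was higher in each NOCT line, at 47.2, 53.1 and 51.0 CPM in GST lines 2, 8 and 9 and 62.4, 68.8 and 57.0 CPM in NOCT lines 4, 11 and 12 (log2 fold change 0.31 with SE 0.10, edgeR adjusted p 0.253). P4HA1, a collagen prolyl hydroxylase, was higher in NOCT lines 4 and 11 and within the GST range in NOCT line 12, at 35.8, 33.2 and 36.7 CPM in GST lines 2, 8 and 9 and 47.2, 46.3 and 36.2 CPM in NOCT lines 4, 11 and 12 (log2 fold change 0.30 with SE 0.13, edgeR adjusted p 0.353). BNIP3, the relative of BNIP3L, had the opposite sign, at 13.6, 18.2 and 16.7 CPM in GST lines 2, 8 and 9 and 7.75, 9.29 and 17.9 CPM in NOCT lines 4, 11 and 12 (log2 fold change -0.48 with SE 0.30, edgeR adjusted p 0.518). VEGFA, the vascular growth factor, stood at 79.4, 50.8 and 63.2 CPM in GST lines 2, 8 and 9 and 41.6, 41.5 and 61.6 CPM in NOCT lines 4, 11 and 12 (log2 fold change -0.42 with SE 0.21, edgeR adjusted p 0.412), lowest in NOCT lines 4 and 11. ADM, the vasodilator peptide adrenomedullin, varied more within the control group than its group means differed. It stood at 19.5, 11.6 and 24.1 CPM in GST lines 2, 8 and 9. In NOCT lines 4, 11 and 12 it stood at 21.9, 14.9 and 23.7 CPM. NDRG1, a stress-induced gene, had a log2 fold change of 0.14 ± 0.14 (SE) and ANKRD37 of -0.54 ± 0.43 (SE), the latter from 10 to 23 counts per library.

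**Figure D4:**
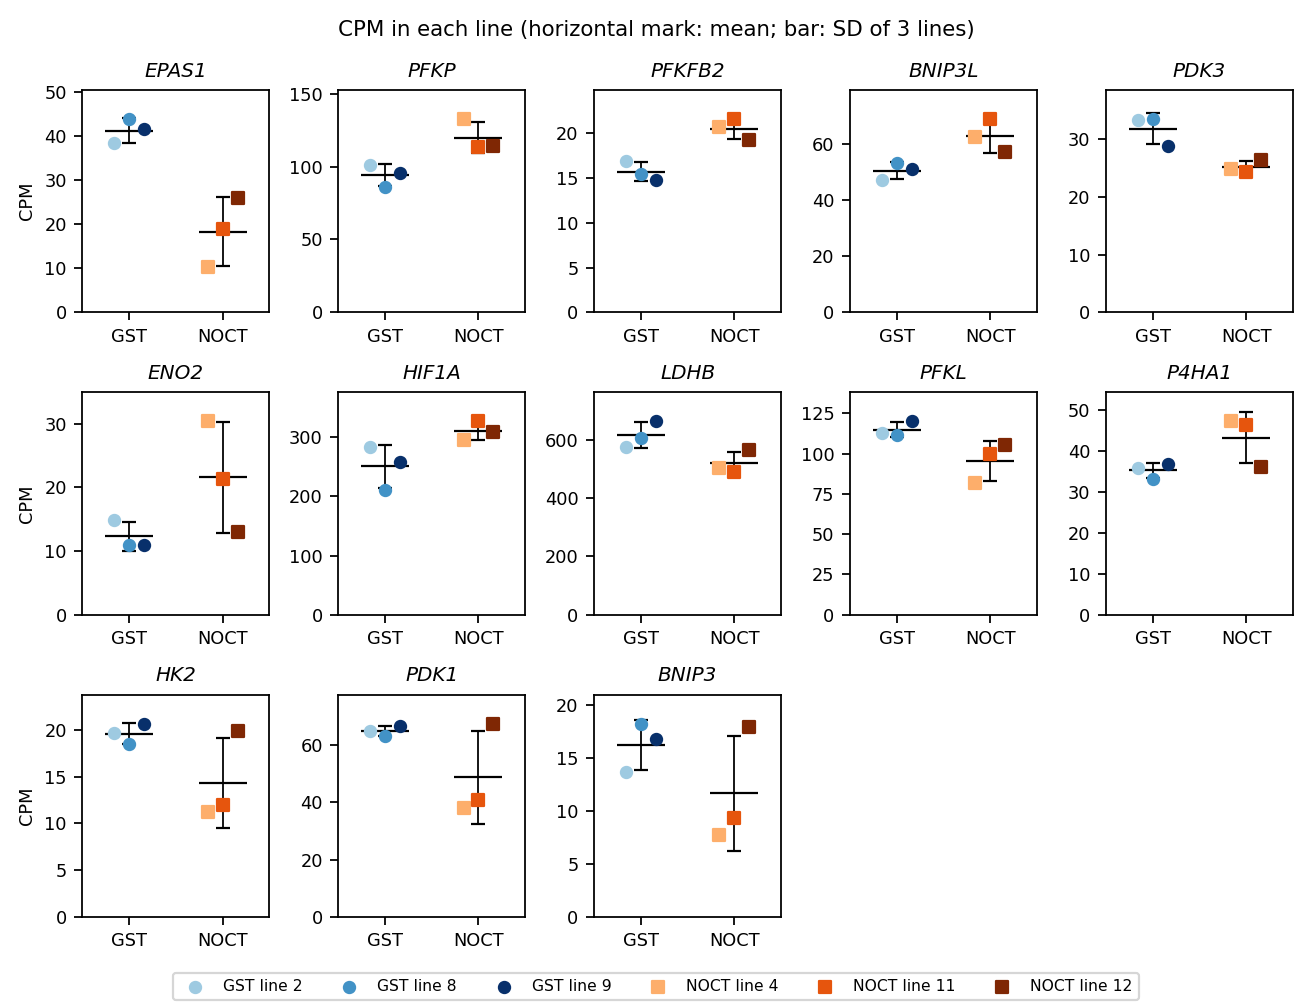
CPM in each line for the 10 genes with an unadjusted p under 0.05, followed by HK2, PDK1 and BNIP3. Horizontal marks are means and bars the SD of 3 lines; axes start at 0. NOCT line 12 (dark square) lies with the GST lines for HK2, PDK1, BNIP3, ENO2 and P4HA1, and below them for EPAS1.

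For several of these genes NOCT line 12 differed from the other NOCT lines. Among the 6 lines it was the one furthest from the mean of the other two of its group in 17 of 38 genes (44.7%), against 29.8% of all genes. Without it, edgeR called 5 of the 38, against 5.42% of all genes: PDK1 (log2 fold change -0.73, edgeR adjusted p 0.00838), EPAS1 (log2 fold change -1.51, edgeR adjusted p 0.0112), HK2 (log2 fold change -0.76, edgeR adjusted p 0.0236), ENO2 (log2 fold change 1.07, edgeR adjusted p 0.0236) and BNIP3 (log2 fold change -0.93, edgeR adjusted p 0.0278). That fit compares 3 GST lines with NOCT lines 4 and 11, and leaving out any other line called 0 of the 38. ENO2 was the only one of the 5 that was higher in the NOCT lines. HK2, PDK1, BNIP3 and ENO2 are HIF targets by background knowledge, and their directions differ. Measured from the mean of the GST lines, the 38 genes had medians of -0.085, -0.16 and 0.014 (log2) in NOCT lines 4, 11 and 12, while all genes had medians between 0.0052 and 0.0071 in these lines. In GST lines 2, 8 and 9 themselves, the medians of the 38 genes were -0.019, -0.039 and 0.050. The TMM factors hold the medians of all genes near 0.

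A single promoter window is printed for each of these 5 genes, to show whether it holds the HIF core letters. Other start sites of the same genes were not searched. Each run is the 250 bases before the RefSeq start site (GRCh38.p14), 5′ to 3′ on the gene's strand, and capitals mark ACGTG or GCGTG on either strand. The windows are BNIP3 at chr10:131981924-131982173 (minus strand), HK2 at chr2:74833877-74834126 (plus strand), ENO2 at chr12:6914330-6914579 (plus strand), EPAS1 at chr2:46297157-46297406 (plus strand) and PDK1 at chr2:172555123-172555372 (plus strand).
BNIP3: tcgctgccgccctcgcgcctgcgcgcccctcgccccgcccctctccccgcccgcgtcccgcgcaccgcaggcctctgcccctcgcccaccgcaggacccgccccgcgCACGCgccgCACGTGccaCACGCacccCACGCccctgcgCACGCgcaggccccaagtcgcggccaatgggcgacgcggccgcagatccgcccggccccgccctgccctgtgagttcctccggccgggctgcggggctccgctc
HK2: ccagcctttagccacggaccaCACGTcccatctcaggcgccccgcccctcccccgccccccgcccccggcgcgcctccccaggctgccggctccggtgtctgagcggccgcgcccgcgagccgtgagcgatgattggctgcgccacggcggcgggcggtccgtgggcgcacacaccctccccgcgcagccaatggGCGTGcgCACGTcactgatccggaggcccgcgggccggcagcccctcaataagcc
ENO2: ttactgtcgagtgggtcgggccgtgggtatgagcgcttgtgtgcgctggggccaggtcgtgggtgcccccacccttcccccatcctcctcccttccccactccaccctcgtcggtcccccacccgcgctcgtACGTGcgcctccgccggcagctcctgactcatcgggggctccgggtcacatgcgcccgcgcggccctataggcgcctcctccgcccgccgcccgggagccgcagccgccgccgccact
EPAS1: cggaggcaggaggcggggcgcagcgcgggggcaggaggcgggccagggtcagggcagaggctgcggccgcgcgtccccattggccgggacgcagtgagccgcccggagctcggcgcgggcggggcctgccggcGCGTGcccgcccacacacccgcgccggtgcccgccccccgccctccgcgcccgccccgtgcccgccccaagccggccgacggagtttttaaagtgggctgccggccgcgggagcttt
PDK1: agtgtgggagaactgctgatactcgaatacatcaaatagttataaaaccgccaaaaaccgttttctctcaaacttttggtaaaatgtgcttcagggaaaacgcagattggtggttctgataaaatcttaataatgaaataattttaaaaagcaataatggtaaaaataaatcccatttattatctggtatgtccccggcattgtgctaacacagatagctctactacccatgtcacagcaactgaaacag

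BNIP3 holds 6 matches, all between 104 and 143 bases before the start, of which the ACGTG pair are the same 6 letters read on both strands. HK2 holds 3, of which the nearest lie 48 and 55 bases before the start. ENO2 has 1 ACGTG at 118 bases and EPAS1 1 GCGTG at 117 bases before the start, and PDK1 has 0 in this window. ENO2 was higher in NOCT lines 4 and 11, and the other 4, with 0 to 6 matches in these windows, were lower. A window without a match does not show that the gene lacks the letters elsewhere. Windows of 300 bases (250 before and 50 after the start) were found for 34 of the 40 genes, and 25 of these (73.5%) held ACGTG or GCGTG on either strand, against 48.4% of all 35116 RefSeq windows and 60.3% of those of genes tested here. ACGTG was in 14 of the 34 (41.2%), against 21.4% of all windows and 25.1% of those of tested genes. GCGTG was in 17 (50.0%), against 36.5% and 48.2%, so close to the share of tested genes. BNIP3 and LDHA, with 6 matches each, had the most. In LDHA, too, some matches are the same 6 letters read on both strands. These lie at 86 and 87 and at 184 and 185 bases before the start. These counts describe letters and not binding.

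Clonal HEK293 lines can differ in chromosome copies, so each gene was set beside its neighbours: the median deviation of up to 50 tested genes on each side from their own mean over the 6 lines. EPAS1, HK2 and PDK1 all lie on chromosome 2, and the neighbours of all 3 were low in NOCT line 4 alone. Around EPAS1 they were at 0.062, 0.10 and 0.045 in GST lines 2, 8 and 9 and -0.39, 0.058 and 0.13 in NOCT lines 4, 11 and 12 on the log2 scale. Those of HK2 had -0.34 and those of PDK1 -0.36 in NOCT line 4. The corresponding values in NOCT line 11 were 0.036 and 0.053. EPAS1 itself deviated by 0.52, 0.71 and 0.63 in GST lines 2, 8 and 9 and -1.33, -0.49 and -0.042 in NOCT lines 4, 11 and 12. In NOCT line 11, therefore, all 3 genes were low while their neighbours were not. With the level of the neighbours removed, the log2 fold change was -1.09 for EPAS1 (edgeR adjusted p 0.0654), while HK2 had -0.31 (edgeR adjusted p 0.448) and PDK1 -0.28 (edgeR adjusted p 0.447). That fit kept all 6 lines. The fit without NOCT line 12, which called all 3 genes, did not remove the level of the neighbours. Copy number itself was not measured.

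HIF1A, on chromosome 14, and its neighbours had like values in each line. The neighbours were at 0.076, -0.37 and -0.21 in GST lines 2, 8 and 9 and 0.20, 0.17 and 0.15 in NOCT lines 4, 11 and 12, and HIF1A was at 0.030, -0.40 and -0.11 in GST lines 2, 8 and 9 and 0.087, 0.23 and 0.15 in NOCT lines 4, 11 and 12. With the neighbours removed, its log2 fold change went from 0.31 to -0.022 (edgeR adjusted p 0.924). The neighbours were 0.34 higher in NOCT than in GST lines, and their part in the HIF1A difference was not tested. GPI, on chromosome 19, showed the same in single lines: its neighbours were at 0.34, -0.49 and -0.066 in GST lines 2, 8 and 9 and 0.49, 0.46 and -0.71 in NOCT lines 4, 11 and 12 and GPI was at 0.28, -0.30 and 0.053 in GST lines 2, 8 and 9 and 0.28, 0.36 and -0.67 in NOCT lines 4, 11 and 12. The SD of GPI over the 6 lines was 0.41 and became 0.15 with the neighbours subtracted. PFKL, on chromosome 21, went from -0.27 to -0.14, its neighbours being at -0.31 in NOCT line 4. PFKP (0.37), PFKFB2 (0.33), BNIP3L (0.32) and ENO2 (0.82) differed from their first values by less than 1 SE.

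**Figure D5:**
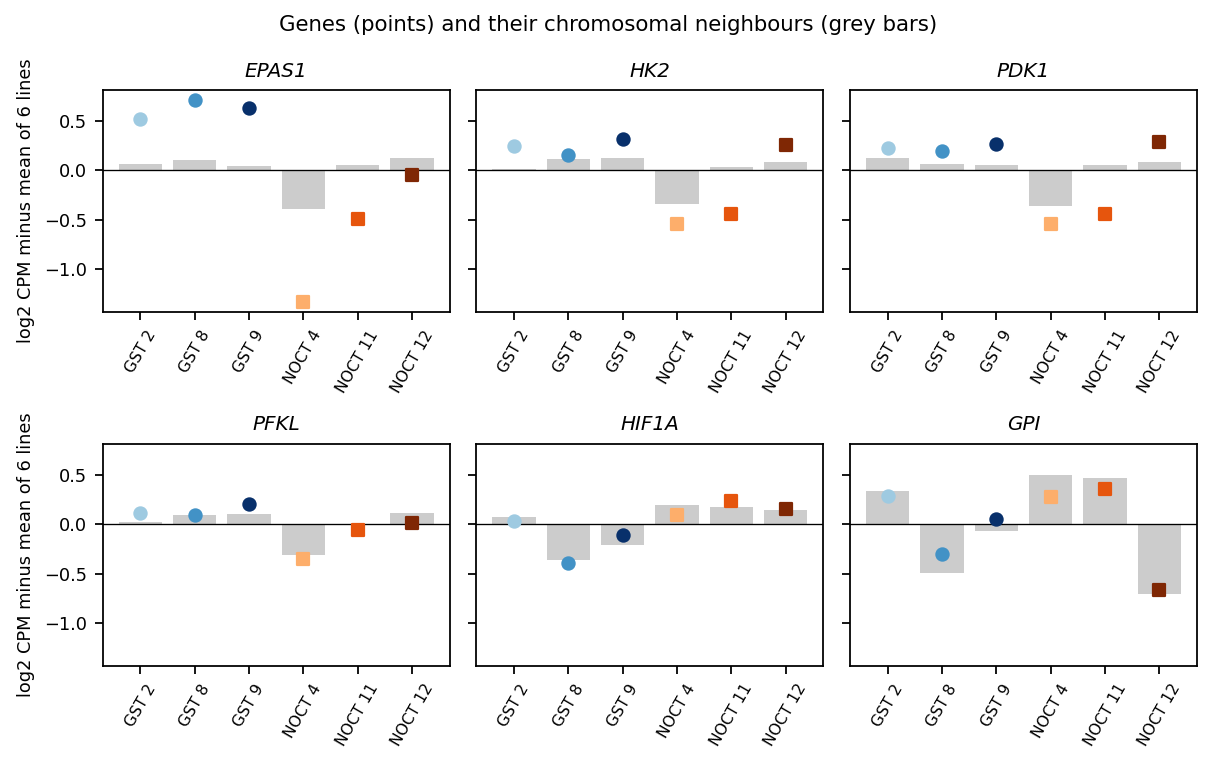
Deviation of log2 CPM from the mean of the 6 lines for EPAS1, HK2, PDK1, PFKL, HIF1A and GPI (points, circles for GST and squares for NOCT lines) and the median of their chromosomal neighbours (grey bars). For HIF1A points and bars share their sign in each line, for GPI in each line but GST line 9, and for EPAS1, HK2 and PDK1 the NOCT line 11 point is low while its bar is near 0.

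Of 90 other genes of the same pathways, in 3 lists, 70 were tested, and 0 passed in edgeR over all genes (0.0579% of all genes). At an unadjusted p under 0.05 there were 16 (22.9%, against 13.9% of all genes), 9 higher and 7 lower in NOCT lines. The groups did not overlap in 20 (28.6%, against 20.0% of all genes), 11 higher and 9 lower. The median log2 fold change of the 70 was -0.0087. DESeq2 called 5 of the 70 (7.14%, against 2.94% of all genes), namely EP300 (adjusted p 0.00209), ERO1A (0.00779), PDP1 (0.0224), MXI1 (0.0343) and PLOD2 (0.0434). The authors' deposited table calls 3 of the 78 it holds, EP300 (adjusted p 0.0134), ERO1A (0.0133) and PDP1 (0.0197), against 2.09% of its genes. Of 28 tested genes of glycolysis and pyruvate metabolism, the 3 with the smallest p were PDP1, the phosphatase that reactivates pyruvate dehydrogenase, MINPP1, an inositol phosphate phosphatase that also acts on bisphosphoglycerate, and PDK4. PDP1 stood at 15.7, 18.9 and 16.1 CPM in GST lines 2, 8 and 9 and 36.6, 31.0 and 20.4 CPM in NOCT lines 4, 11 and 12 (log2 fold change 0.80 with SE 0.21, edgeR adjusted p 0.196), higher in each NOCT line. PDK4 stood at 4.91, 2.79 and 3.15 CPM in GST lines 2, 8 and 9 and 5.54, 6.10 and 6.33 CPM in NOCT lines 4, 11 and 12 (log2 fold change 0.73 with SE 0.25, edgeR adjusted p 0.268), again without overlap, as in PDP1. MINPP1 stood at 31.7, 28.6 and 31.4 CPM in GST lines 2, 8 and 9 and 39.2, 40.2 and 35.1 CPM in NOCT lines 4, 11 and 12 (log2 fold change 0.32 with SE 0.11, edgeR adjusted p 0.254). PDK4 was thus above the GST range in all NOCT lines while PDK3 was below it. PDP1, PDK4 and MINPP1 were picked by their small p, and of the 28 genes 8 did not overlap, 5 higher and 3 lower.

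Of 12 tested genes of oxygen sensing, EP300, a HIF coactivator, ELOB, a subunit of the VHL ubiquitin ligase, and RBX1, its RING subunit, had the smallest p. EP300 stood at 244, 239 and 257 CPM in GST lines 2, 8 and 9 and 322, 334 and 332 CPM in NOCT lines 4, 11 and 12 (log2 fold change 0.42 with SE 0.080, edgeR adjusted p 0.120), and its neighbours on chromosome 22 were 0.25 higher in NOCT than in GST lines. RBX1, also on chromosome 22, stood at 28.1, 34.1 and 33.2 CPM in GST lines 2, 8 and 9 and 39.0, 35.3 and 37.3 CPM in NOCT lines 4, 11 and 12 (log2 fold change 0.23 with SE 0.11, edgeR adjusted p 0.423), with neighbours 0.26 higher. ELOB stood at 75.8, 107 and 104 CPM in GST lines 2, 8 and 9 and 73.8, 67.4 and 71.5 CPM in NOCT lines 4, 11 and 12 (log2 fold change -0.43 with SE 0.14, edgeR adjusted p 0.238). Its neighbours on chromosome 16 were lower in NOCT than in GST lines, with a difference of -0.22. They stood at -0.090, 0.27 and 0.19 in GST lines 2, 8 and 9 and -0.017, -0.16 and -0.12 in NOCT lines 4, 11 and 12. The part of the neighbours in these differences was not tested. Of 30 further HIF targets tested, 12 had a fold change above 0 and 18 below, and the 3 with the smallest p were ERO1A, an oxidase of protein folding, MXI1, a MYC antagonist, and PLOD2, a collagen lysyl hydroxylase. ERO1A was at 131, 106 and 111 CPM in GST lines 2, 8 and 9 and 176, 170.0 and 151 CPM in NOCT lines 4, 11 and 12 (log2 fold change 0.51 with SE 0.11, edgeR adjusted p 0.145), and its neighbours on chromosome 14 were 0.34 higher in NOCT lines. MXI1 was at 50.4, 49.2 and 50.0 CPM in GST lines 2, 8 and 9 and 37.1, 39.7 and 39.2 CPM in NOCT lines 4, 11 and 12 (log2 fold change -0.37 with SE 0.089, edgeR adjusted p 0.171). PLOD2 was at 63.8, 52.2 and 52.8 CPM in GST lines 2, 8 and 9 and 77.9, 69.7 and 93.7 CPM in NOCT lines 4, 11 and 12 (log2 fold change 0.52 with SE 0.14, edgeR adjusted p 0.194). Each of the 3, picked by their small p, separated the groups without overlap, 2 upward and 1 downward. Of the 30, 8 did not overlap, 3 higher and 5 lower in NOCT lines, against 20.0% of all genes.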

How the data were processed

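Counts are whole reads per gene, deposited by the authors in 1 table per line; per the submitters' processing notes, STAR 2.5.2b, HTSeq 0.6.1p1, cutadapt 1.8.1, Trimmomatic 0.33 and build GRCh38 were used, with DESeq2 1.16.1. The annotation release is not given in the sources used here. The libraries were depleted of ribosomal RNA, strand-specific and read at 50 bp, per the labels. The authors' deposited TPM values give levels between genes. Their deposited DESeq2 comparison gives log2 fold changes that its name calls shrunken, p-values and adjusted p-values, mean normalised signal and a score (the Wald statistic); its direction was read from the construct rows (-1.93 for GST, 1.61 for NOCT).

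Rows that name no gene held 42.9% to 47.1% of reads and entered neither library sizes nor tests. Counts of genes kept by filterByExpr (17261) were fitted with edgeR 4.0.16 in R 4.3.3: TMM factors, quasi-likelihood test, Benjamini-Hochberg adjustment over all genes, threshold 0.05. The SE is the log2 fold change over the square root of F. On simulated counts the fit recovered 45.9% of changes of log2 size 1 and 90.6% of those of log2 size 2, with 4 false calls. Real changes of log2 size 1 can therefore go uncalled. Alternatives used DESeq2 1.42.0 and limma 3.58.1, other scalings, no filter, an offset for neighbouring genes (GENCODE 29, GRCh38) and leaving out each line. Positions are from GENCODE 29 and promoters from RefSeq (GRCh38.p14). The 40 genes, the lists and the tests were chosen with earlier results of these data known. All 40 genes are accounted for; by rule, values per line are given for those with an unadjusted p under 0.05, the most and least abundant of each role list by TPM and members of isoform families whose share is described. Further genes given by line were chosen after their values were seen. Of the other pathway genes, the 3 with the smallest p per list are named.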

Additional observations from a re-analysis of the deposited data

How the results depend on the processing

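No paired analysis was possible because the groups share no replicate number. Over all genes, edgeR called 10; the count was 508 with DESeq2, 22 with spike-in totals, 34 with total gene counts, 888 with no filter on low counts (34539 genes tested), 37 with the level of neighbouring genes removed, and 0 (without GST line 9; 1488 with an unadjusted p under 0.05) to 970 (without NOCT line 12) when each line was left out, with 5 without GST line 2, 6 without GST line 8 and 1 without NOCT line 11. Of the 38 genes, 0 were called in edgeR, 1 in DESeq2 (EPAS1), 2 with no filter (EPAS1 and ENO2; 2.57% of all genes) and 0 to 5 when each line was left out. Of the other pathway genes, the count of 0 went to 5 with DESeq2, 6 with no filter and 0 to 5 when each line was left out. The genes whose groups did not overlap, 10 of 38, numbered 12 to 23 when each line was left out, against 25.9% to 41.6% of all genes (20.0% with all lines). The counts past 1.5 times the first were 16 without GST line 2, against 32.8% of all genes, and 23 without NOCT line 12, against 41.6%. The cause of these changes was not tested. Of 532 refits of single genes, 489 kept direction and side of the threshold, 8 passed it with the same direction and 35 changed sign, none of them at an adjusted p under 0.292. Signs of uncalled log2 fold changes also differed between settings. DESeq2 changed the sign of SLC2A1 (to -0.0036), EGLN1 (to -0.0025). RLE factors changed the sign of SLC2A1 (to -0.0036), EGLN1 (to -0.0022). Spike-in totals as library sizes changed the sign of SLC16A1 (to 0.040), HK1 (to 0.044), PFKM (to 0.062), TPI1 (to 0.047), PGK1 (to 0.046), PGAM1 (to 0.062). No filter on low counts changed the sign of SLC2A1 (to -0.0045), EGLN1 (to -0.0019). The limma fit on log2(TPM + 1) changed the sign of PGAM1 (to 0.00091). The limma fit on log2(TPM + 0.1) changed the sign of PGAM1 (to 0.00093). The level of neighbouring genes removed changed the sign of SLC2A1 (to -0.012), GPI (to -0.18), HIF1A (to -0.022), EGLN1 (to -0.067), NDRG1 (to -0.0063). Leaving out each line in turn moved the log2 fold change across 0 for SLC2A1 (-0.18 to 0.098), SLC2A3 (-0.24 to 0.16), GPI (-0.15 to 0.29), ENO1 (-0.044 to 0.094), PDHA1 (-0.043 to 0.051), EGLN1 (-0.052 to 0.042), ADM (-0.12 to 0.38). Promoter windows of 200 bases held the HIF letters in 19 of 34 genes (55.9%, against 38.8% of all such windows). The share over tested genes alone was not computed for this length. Genes with a mean under 10 CPM (ALDOA, ALDOC, PFKFB4, EGLN3, ANKRD37) rest on few counts, and CA9 and SLC16A3 could not be compared at this depth.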

Other observations

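The genes ranged from steady to variable between clones. The SD of log2 CPM over the 6 lines was smallest for PGAM1 (0.054), EGLN1 (0.075), PDHA1 (0.076) and HK1 (0.078). GAPDH, often used as a reference gene, had 0.14. At the other end were EPAS1 (0.80), ENO2 (0.57), BNIP3 (0.50), ALDOC (0.43) and ADM (0.41). The median was 0.20 over the 38 genes and 0.23 over all genes tested.

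Subtracting the neighbours made the spread over the 6 lines smaller for 21 of 38 genes, against 62.3% of all genes. In NOCT line 12 the neighbours of PKM were at 0.35 and PKM at 0.30, whereas the neighbours of NDRG1 were at 0.48 and NDRG1 at 0.084. P4HA2, the paralog of P4HA1, was also higher in NOCT lines 4 and 11 and not in NOCT line 12, at 17.3, 15.6 and 14.9 CPM in GST lines 2, 8 and 9 and 34.7, 33.1 and 14.6 CPM in NOCT lines 4, 11 and 12 (log2 fold change 0.79 with SE 0.30, edgeR adjusted p 0.293; chosen after its values were seen).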
